A study of Mus musculus with 20 samples.

Results

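Oligodendrocytes wrap axons of the central nervous system in myelin, and the genes that follow them from precursor to myelinating cell were compared here between the brains of *Winnie* and C57BL/6 mice. The 34 genes were taken by name from the deposited table of 17211 genes, and all 34 were listed there. They comprise 2 genes of precursor cells, 3 of committed cells, 4 transcription factors, 11 myelin sheath proteins, 5 lipid and metabolic enzymes, 2 gap junction proteins and 7 other genes expressed in oligodendrocytes. The rule is a list of gene names and applies no threshold on a measured value.

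Oligodendrocyte precursors carry the receptor PDGFRA, divide in response to PDGF and persist throughout the adult brain. On commitment they lose PDGFRA, pass through a stage marked by GPR17, BCAS1 and ENPP6, and then switch on MYRF and the genes of the sheath. *Olig1* and *Olig2* are active along the whole lineage, and *Olig2* is also needed for a cell to enter it.

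The 10 *Winnie* brains came from 14-week-old mice with mutated *Muc2*, the gene of the main intestinal mucin, in which colitis arises without treatment, and the 10 control brains came from C57BL/6 mice of the same age. According to the study's methods the controls were littermates. The labels name no treatment, 5 mice of each were labelled female and 5 male, and each library was made from the brain of 1 mouse. The mutation is in the germ line, so an effect of the colitis and another effect of the genotype on the brain cannot be told apart.

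Expression is given as CPM, the reads of a gene scaled to a common total of reads over all listed genes in each brain. Libraries held 16540303 to 23923769 reads, and even *Enpp6*, the lowest of the 34 genes, was read at least 100 times in every brain. The RNA of the sex-linked genes *Xist* and *Ddx3y* went against the labelled sex in 9 of 10 C57BL/6 brains and in 0 of 10 *Winnie* brains. Sex was not a covariate of the main comparison, which was planned on the labels, where sex is balanced between the genotypes, and the study names no covariate. By these 2 genes, however, C57BL/6 replicates 4 and 6 to 10 had the RNA of females and replicates 1, 2, 3 and 5 that of males. By RNA the sexes are therefore not balanced in the C57BL/6 group. The sample names end in S1 to S10 for C57BL/6 and in S11 to S20 for *Winnie*, and the labels do not say what these numbers stand for. Any order or batch that follows them cannot be told apart from genotype. The labels give the tissue as brain without naming its parts, and in such bulk RNA fewer cells of a type and less RNA per cell cannot be told apart. The cerebellar markers *Pcp2*, *Gabra6* and *Cbln3* were low but uneven between brains. *Pcp2* of Purkinje cells ranged from 0 to 5.02 CPM in C57BL/6 and from 0 to 1.02 CPM in *Winnie*. *Gabra6* of granule cells ranged from 0.125 to 7.44 CPM and from 0 to 1.40 CPM, and *Cbln3* from 0.543 to 12.8 CPM and from 0.625 to 3.70 CPM. Of 6 hindbrain markers 1 was listed, *Slc6a5*, at 0.293 to 6.42 CPM and 0.158 to 5.31 CPM.

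Measured per kilobase of exon, the 34 genes spanned a wide range of levels. *Mbp*, the main basic protein of myelin, was at the top with a mean of 416 CPM per kilobase in C57BL/6 and 402 in *Winnie* brains. *Mobp*, a smaller basic protein of the sheath, followed with 159 and 160 CPM per kilobase, and its range over the 20 brains, 138 to 180, did not reach that of *Mbp*, 356 to 469. *Cldn11*, the claudin of myelin tight junctions, and *Mal*, a lipid raft protein of the sheath, came next at 106 and 100.0 CPM per kilobase in C57BL/6, and their ranges overlapped. The lowest were the precursor gene *Cspg4*, with 2.11 and 2.29 CPM per kilobase, and *Enpp6*, a choline phosphodiesterase of newly formed oligodendrocytes, with 1.17 and 1.18. All 4 defining oligodendrocyte markers fixed for the check of the tissue were detected in every brain, with a summed level of 4308 to 5478 CPM in C57BL/6 and 4268 to 5143 CPM in *Winnie*.

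**Figure D1:**
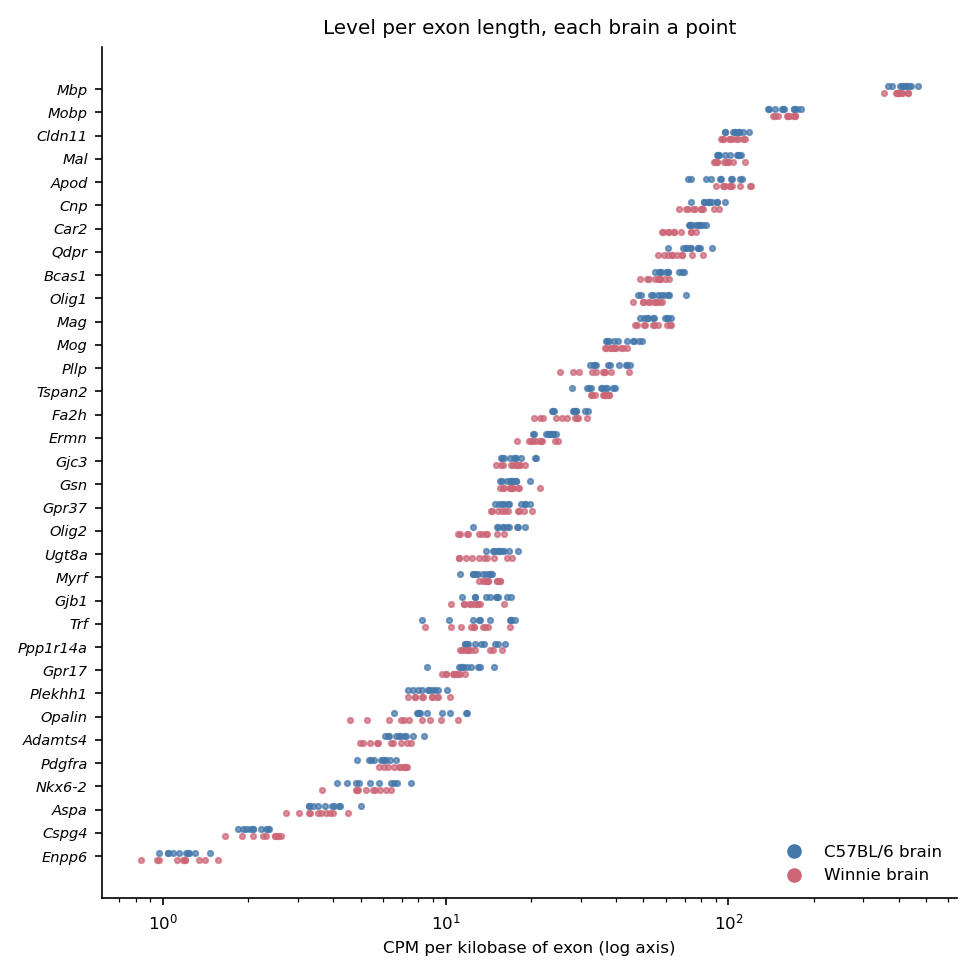
CPM per kilobase of exon on a log axis for the 34 genes, ordered by level, with each brain as a point (blue, C57BL/6; red, *Winnie*). *Mbp* lies at the top with means of 416 and 402 and *Enpp6* at the bottom with 1.17 and 1.18, and the points of the genotypes overlap for every gene.

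Of the 34 genes, 3 differed between the genotypes at a false discovery rate (FDR) under 0.05, which is what called means here. *Pdgfra* rose in *Winnie* brains, whereas *Olig2* and *Car2* fell. These 3 are 8.82% of the genes, where 2.52% of all 17211 genes passed the same test. In the direction higher in *Winnie* the share of all genes was 1.52% and in the direction lower it was 1.01%. An unadjusted p under 0.05 was reached by 12 of the 34 (35.3%), against 17.6% of all genes. Of these 12, 2 were higher and 10 were lower in *Winnie*, where the background shares were 9.53% and 8.08%. Irrespective of any test, 26 of the 34 (76.5%) had a log2 fold change below 0, against 49.0% of all genes, and the median log2 fold change was -0.09, against 0.002 over all genes. The 34 genes vary together from brain to brain, as described below, and are therefore not 34 separate observations of the same difference.

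The differences were small. The largest log2 fold change was -0.30, for *Olig2*, and 0 of the 34 genes passed the threshold of the study's methods, an FDR under 0.001 with at least a 1.5-fold difference. No gene of the table did either (0%) in the limma fit of all 20 brains, and the smallest FDR of any gene in it was 0.00108. The study applied its threshold with edgeR and describes 8 C57BL/6 and 6 *Winnie* brains. It reported genes of tryptophan and nicotinamide metabolism that differed in the brain. For 33 of the 34 genes the whole 95% interval lay within 1.5-fold in both directions. The exception was *Opalin*, a sheath protein of the central nervous system, whose interval ran from -0.59 to 0.02.

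**Figure D2:**
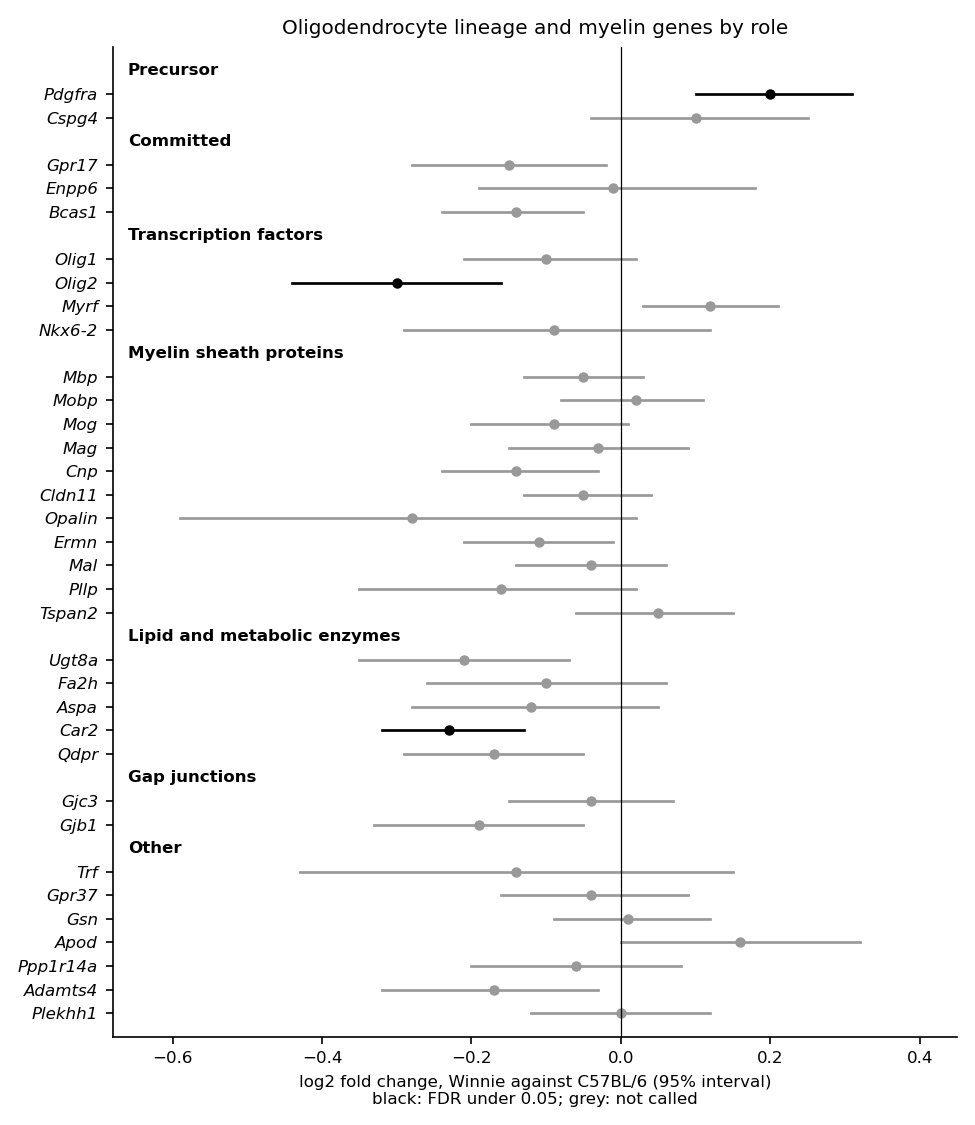
Log2 fold change of the 34 genes, *Winnie* against C57BL/6, with 95% intervals from limma on log2(CPM + 0.5) (n = 10 brains per genotype), grouped by role; black marks an FDR under 0.05. *Pdgfra* lies to the right of 0 at 0.20, *Olig2* and *Car2* lie to the left at -0.30 and -0.23, and grey marks the genes that were not called.

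*Pdgfra* encodes the receptor by which oligodendrocyte precursors respond to PDGF, and it also marks fibroblasts of the brain's coverings. In C57BL/6 brains it ranged from 48.7 to 66.9 CPM with a median of 59.6, and in *Winnie* brains from 58.1 to 73.2 CPM with a median of 68.7. The ranges overlapped, although 6 of 10 *Winnie* brains lay above the highest C57BL/6 brain and 4 of 10 C57BL/6 brains lay below the lowest *Winnie* brain. The means were 58.5 ± 5.30 and 67.3 ± 5.32 CPM (SD, n = 10 each), a log2 fold change of 0.20 (SE 0.0516, 95% interval 0.10 to 0.31, limma FDR = 0.0330). Of 10 markers of mural cells and fibroblasts, 5 had a log2 fold change above and 5 below 0 and 0 were called, and their part in the level of *Pdgfra* was not tested. *Pdgfra* lies on chromosome 5 of GRCm38 from 75152292 to 75198215 on the plus strand, and its exons sum to 10024 bases. Of these bases 6.5% are shared with other annotated genes, *Gm42802*, *Gm42803* and *Mir7025*.

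The call for *Pdgfra* was kept under 15 of the 17 other settings tried and in 13 of the 20 analyses that left out 1 brain each. With a brain left out it was lost, with an FDR between 0.0540 and 0.0669, without C57BL/6 replicate 3 or 5 or without *Winnie* replicate 3, 7, 8, 9 or 10. After a correction for exon length and GC content, which was added once the data had been seen, its log2 fold change was 0.15 and its FDR 0.102.

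*Cspg4* encodes the NG2 proteoglycan, which precursors share with the pericytes of blood vessels. Its means were 25.2 ± 2.26 and 27.3 ± 3.79 CPM (SD, n = 10 each), and it was not called (log2 fold change 0.10, 95% interval -0.04 to 0.25, limma FDR = 0.458). *Winnie* brains lay above the highest C57BL/6 brain in 5 of 10 cases, but 1 *Winnie* brain was the lowest of all.

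The committed stage is read by *Gpr17*, *Bcas1* and *Enpp6*, none of which was called. *Gpr17*, a receptor that holds cells at this stage, ranged from 44.6 to 76.8 CPM in C57BL/6 (median 60.8) and from 50.2 to 60.9 CPM in *Winnie* (median 55.5). The *Winnie* brains lay within the C57BL/6 range, and 9 of 10 were below the C57BL/6 median. The log2 fold change was -0.15 (SE 0.0621, 95% interval -0.28 to -0.02, limma FDR = 0.189). *Gpr17* was called under 0 of the 17 other settings tried and in 1 of the 20 analyses that left out 1 brain each. That was without C57BL/6 replicate 2, the brain with the lowest level (limma FDR = 0.0218). *Bcas1*, a protein of cells that are starting to myelinate, ranged from 207 to 263 CPM in C57BL/6 (median 228) and from 184 to 233 CPM in *Winnie* (median 213). Its groups overlapped, with 4 *Winnie* brains below every C57BL/6 brain, and its log2 fold change was -0.14 (SE 0.0463, 95% interval -0.24 to -0.05, limma FDR = 0.0931). *Enpp6* had means of 7.51 ± 0.939 and 7.54 ± 1.42 CPM (SD, n = 10 each), and its 95% interval ran from -0.19 to 0.18 on the log2 scale.

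Genes were also set against each other within each brain, in 4 pairs chosen after their values were seen. The tests of the pairs (two-sided permutation tests with 100000 resamples, adjusted over the 4) are therefore no independent support for the calls of their genes. The adjustment does not cover the choice of these 4 among all possible pairs, so the p-values only describe the pairs. The log2 ratio of *Pdgfra* to *Gpr17* averaged -0.08 ± 0.287 in C57BL/6 and 0.28 ± 0.179 in *Winnie* brains (SD, n = 10 each), a difference of 0.35. In 10 of 10 *Winnie* brains the ratio lay above the C57BL/6 median (permutation p = 0.0047, adjusted p = 0.0086). The log2 ratio of *Pdgfra* to the other precursor gene, *Cspg4*, averaged 1.20 ± 0.0958 and 1.29 ± 0.145, and its difference of 0.10 did not pass (permutation p = 0.092, adjusted p = 0.092), with 8 of 10 *Winnie* brains above the C57BL/6 median.

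**Figure D3:**
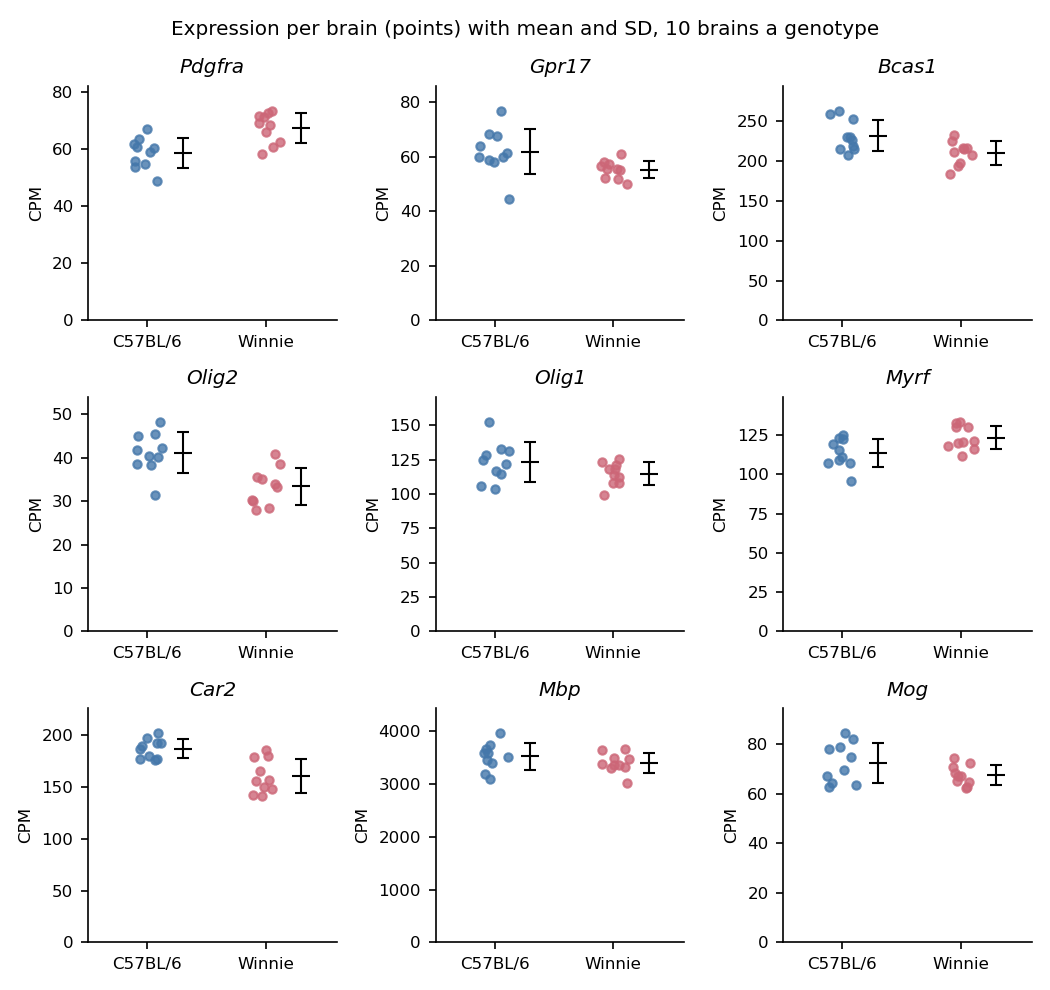
CPM in each brain (points; blue, C57BL/6; red, *Winnie*) with mean and SD for 9 genes from precursor to sheath; axes start at 0. *Pdgfra* is higher in *Winnie* (means 58.5 and 67.3), *Olig2* is lower (41.2 and 33.4) and *Car2* is lower (187 and 159.9), while the points of *Mbp* and *Mog* largely overlap.

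Among the transcription factors, *Olig2* fell. In C57BL/6 brains it ranged from 31.5 to 48.2 CPM with a median of 41.1, and in *Winnie* brains from 28.0 to 40.8 CPM with a median of 33.6. All 10 *Winnie* brains lay below the C57BL/6 median and 4 lay below the lowest C57BL/6 brain, while 5 C57BL/6 brains lay above the highest *Winnie* brain. The means were 41.2 ± 4.63 and 33.4 ± 4.24 CPM (SD, n = 10 each), a log2 fold change of -0.30 (SE 0.0695, 95% interval -0.44 to -0.16, limma FDR = 0.0209). The call was kept under the 17 other settings tried and in 20 of 20 analyses that left out 1 brain each, with an FDR of at most 0.0484. *Olig2* lies on chromosome 16 from 91225457 to 91228677 on the plus strand.

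*Olig1* lies beside *Olig2* on chromosome 16, from 91269772 to 91271933, and encodes a related factor that acts later in maturation. It was not called (123 ± 14.3 and 115 ± 8.27 CPM, SD, n = 10 each; log2 fold change -0.10, 95% interval -0.21 to 0.02, limma FDR = 0.372). The log2 ratio of *Olig2* to *Olig1* within a brain averaged -1.57 ± 0.136 in C57BL/6 and -1.78 ± 0.152 in *Winnie* (SD, n = 10 each). In 7 of 10 *Winnie* brains the ratio lay below the C57BL/6 median (permutation p = 0.0065, adjusted p = 0.0086). This pair, too, was chosen after its values were seen, and its p-value only describes it.

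*Myrf*, the factor that directly drives sheath genes, and *Nkx6-2*, a homeobox factor of maturing cells, were not called. *Myrf* had means of 114 ± 9.16 and 123 ± 7.52 CPM (SD, n = 10 each) and a log2 fold change of 0.12 (limma FDR = 0.136), with 4 *Winnie* brains above every C57BL/6 brain. *Nkx6-2* had a log2 fold change of -0.09 (limma FDR = 0.714).

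The bases before the starts of *Pdgfra* and *Olig2* are shown as a description of called genes. OLIG2 is known to bind E-boxes, and binding at either gene was not tested. The sequences are RefSeq's for GRCm38.p6, on the plus strand, at chr5:75152001-75152250 for *Pdgfra* and chr16:91225300-91225456 for *Olig2*, where the run stops before the first annotated exon. Capitals mark each E-box, searched as CANNTG, which reads alike on both strands.
*Pdgfra*: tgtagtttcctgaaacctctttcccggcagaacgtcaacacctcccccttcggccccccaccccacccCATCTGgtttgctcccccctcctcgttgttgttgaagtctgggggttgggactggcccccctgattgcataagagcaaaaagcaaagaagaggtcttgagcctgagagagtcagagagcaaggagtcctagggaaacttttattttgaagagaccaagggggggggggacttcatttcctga
*Olig2*: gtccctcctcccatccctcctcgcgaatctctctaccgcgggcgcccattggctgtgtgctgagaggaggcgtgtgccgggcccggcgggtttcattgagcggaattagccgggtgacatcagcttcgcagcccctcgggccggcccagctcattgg
The *Pdgfra* run of 250 bases holds 1 E-box, CATCTG, and the shorter *Olig2* run of 157 bases holds 0. The 250 bases before each start were searched in 32851 promoter windows, and 66.2% hold CANNTG. It is also in the first windows of 17 of the 25 genes here that have a window. The SOX motifs ACAAAG and ACAATG, searched on both strands, are in 16.5% and 10.7% of all windows and in those of 6 and 3 of the 25 genes. A match is a description of the letters and not a binding site, and these shares were not compared by a test.

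None of the 11 myelin sheath genes was called. Of these, 2 had a higher mean and 9 a lower mean in *Winnie*, and their median log2 fold change was -0.05. *Mbp* ranged from 3099 to 3969 CPM in C57BL/6 (median 3548) and from 3014 to 3663 CPM in *Winnie* (median 3376). The groups overlapped over most of their range. The log2 fold change was -0.05 (SE 0.0390, 95% interval -0.13 to 0.03, limma FDR = 0.554). *Mog*, the glycoprotein of the outermost sheath surface, ranged from 62.8 to 84.4 CPM in C57BL/6 (median 72.1) and from 62.4 to 74.3 CPM in *Winnie* (median 67.1). No *Winnie* brain reached the upper part of the C57BL/6 range, and its log2 fold change was -0.09 (SE 0.0524, 95% interval -0.20 to 0.01, limma FDR = 0.358).

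The sheath gene with the smallest p was *Cnp*, an enzyme of the cytoplasmic channels within myelin. It ranged from 269 to 353 CPM in C57BL/6 (median 311) and from 244 to 338 CPM in *Winnie* (median 284). *Winnie* brains lay below every C57BL/6 brain in 3 cases, and the difference did not pass the correction over all genes (log2 fold change -0.14, SE 0.0517, limma FDR = 0.142). *Mobp*, at 1087 ± 102 and 1097 ± 69.4 CPM (SD, n = 10 each), and *Tspan2*, a tetraspanin, at 165 ± 17.4 and 169.9 ± 9.21 CPM, were the 2 with higher means in *Winnie*. The remaining sheath genes, among them *Mag*, which binds the axon, *Cldn11*, *Mal* and the cytoskeletal protein *Ermn*, had log2 fold changes between -0.28 and -0.03. *Opalin* and *Pllp*, a proteolipid, varied most between brains, with SEs of 0.144 and 0.0879. In *Pllp*, 54.2% of exon bases are shared with another annotated gene, *Gm45767*, so reads there cannot be assigned with certainty.

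All 5 enzymes had lower means in *Winnie*, with a median log2 fold change of -0.17, and *Car2* fell. *Car2* encodes carbonic anhydrase II, which is abundant in oligodendrocytes and is also made by the choroid plexus and by red blood cells. It ranged from 176 to 202 CPM in C57BL/6 (median 188) and from 141 to 186 CPM in *Winnie* (median 156). All 10 *Winnie* brains lay below the C57BL/6 median and 7 lay below the lowest C57BL/6 brain, so the groups overlapped in 3 *Winnie* brains. The means were 187 ± 9.15 and 159.9 ± 16.4 CPM (SD, n = 10 each), a log2 fold change of -0.23 (SE 0.0473, 95% interval -0.32 to -0.13, limma FDR = 0.0112). The call was kept under all 17 settings and 20 left-out brains, including a covariate of choroid plexus markers. *Car2* lies on chromosome 3 from 14886273 to 14900770 on the plus strand.

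Set against *Mbp* in the same brain, the log2 ratio of *Car2* averaged -4.23 ± 0.0782 in C57BL/6 and -4.41 ± 0.135 in *Winnie* (SD, n = 10 each). In 9 of 10 *Winnie* brains the ratio lay below the C57BL/6 median (permutation p = 0.0023, adjusted p = 0.0086). This pair, too, was chosen after its values were seen, and its p-value only describes it. The other enzymes were not called. *Ugt8a*, which makes the galactolipids of myelin, had 6 *Winnie* brains below every C57BL/6 brain and a log2 fold change of -0.21 (limma FDR = 0.0899). *Qdpr*, which recycles tetrahydrobiopterin, had -0.17 (limma FDR = 0.123). *Fa2h*, which hydroxylates myelin lipids, and *Aspa*, which cleaves N-acetylaspartate, had log2 fold changes of -0.10 and -0.12.

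The gap junction proteins of oligodendrocytes were not called. *Gjb1* encodes connexin 32 and ranged from 19.5 to 29.1 CPM in C57BL/6 (median 25.1) and from 17.8 to 27.5 CPM in *Winnie* (median 21.2). In *Winnie*, 9 of 10 brains lay below the C57BL/6 median, and the exception was replicate 10. The log2 fold change was -0.19 (SE 0.0686, 95% interval -0.33 to -0.05, limma FDR = 0.125). *Gjc3*, encoding connexin 29, had a log2 fold change of -0.04 (limma FDR = 0.765).

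Of the 7 other genes, 3 had higher and 4 had lower means in *Winnie* and 0 were called. *Adamts4*, a protease of the extracellular matrix, had the smallest p. It ranged from 29.3 to 40.3 CPM in C57BL/6 (median 33.0) and from 23.9 to 36.2 CPM in *Winnie* (median 29.2), with 5 *Winnie* brains below every C57BL/6 brain. Its log2 fold change was -0.17 (SE 0.0711, 95% interval -0.32 to -0.03, limma FDR = 0.188). *Apod*, the lipid carrier apolipoprotein D, had a log2 fold change of 0.16 (limma FDR = 0.284) and also belongs to fibroblasts and pericytes. *Trf*, the iron carrier transferrin, shares 63.5% of its exon bases with *Gm20425*, is also made by the choroid plexus and had the log2 fold change with the second largest SE, 0.139. *Gpr37*, *Gsn*, *Ppp1r14a* and *Plekhh1* had log2 fold changes between -0.06 and 0.01.

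A further 49 genes of the oligodendrocyte lineage were read from a list that also named *Sept4*, which was not analysed here. Of these 49, 4 were called, 1 higher and 3 lower, where 2.52% of all genes were called, 1.52% higher and 1.01% lower. The log2 fold change was above 0 for 25 and below 0 for 24. *Vcan*, a matrix proteoglycan made by precursors, rose from 22.5 ± 3.14 to 27.5 ± 1.53 CPM (SD, n = 10 each; log2 fold change 0.29, limma FDR = 0.0112), and 10 of 10 *Winnie* brains lay above the C57BL/6 median. Of the 8 precursor genes on this list 7 had a log2 fold change above 0, where 49.0% of all genes lay below 0. Among these 8, *Vcan*, *Ptprz1*, *Sox6* and *Pcdh15* are among the longest genes of the table, and with the correction for length and GC content *Sox6* went from 0.02 to -0.05. *Ptprz1*, a receptor phosphatase of precursors and astrocytes, did not pass (0.18, limma FDR = 0.0503), although 10 of 10 *Winnie* brains lay above the C57BL/6 median.

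The 3 that fell were *Cryab*, *Evi2a* and *Id2*. *Cryab*, a small heat shock protein of mature oligodendrocytes, went from 158 ± 19.9 to 122 ± 16 CPM (SD, n = 10 each; log2 fold change -0.37, limma FDR = 0.00904), with 9 *Winnie* brains below every C57BL/6 brain. *Id2*, an inhibitor of basic helix-loop-helix factors that is not restricted to this lineage, fell by 0.20 on the log2 scale (limma FDR = 0.0184). *Evi2a*, a membrane protein of oligodendrocytes, fell by 0.25 (limma FDR = 0.0281). Its call was kept in 16 of 20 analyses that left out 1 brain each and lost, with an FDR between 0.0543 and 0.0604, without C57BL/6 replicate 5 or 8 or without *Winnie* replicate 7 or 8. *Sox10*, a factor of the whole lineage, had a log2 fold change of -0.17 (limma FDR = 0.179). *Sox8*, from the same list, went the other way at 0.14 (limma FDR = 0.219), with 8 of 10 *Winnie* brains above the C57BL/6 median. Of the 12 regulatory genes on this list, 4 had a log2 fold change above 0 and 8 below 0, where 49.0% of all genes lay below 0.

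Fold changes moved with the length of genes. Across all genes in 10 equal bins of exon length, the median log2 fold change ran from -0.043 in the bin of the shortest to 0.061 in that of the longest. Among called genes, 5 were higher and 26 lower in the shortest bin, whereas 87 were higher and 3 lower in the longest. *Pdgfra* is in the longest bin and lies 0.14 above its median, and *Olig2* and *Car2*, with 2530 and 2422 bases, are in the third and lie at -0.27 and -0.20 from its median. *Vcan*, with 14462 bases, is in the longest bin as well. The 34 genes have a median exon length of 3637 bases, against 4048 for all genes. After the correction for length and GC content, 321 genes were called, 146 higher and 175 lower, in place of 434, 261 higher and 173 lower. *Olig2* and *Car2* were still called (-0.28, limma FDR = 0.0303, and -0.21, limma FDR = 0.0110), and the median of the 34 genes was -0.07. The part of gene length in the uncorrected differences was not tested.

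**Figure D4:**
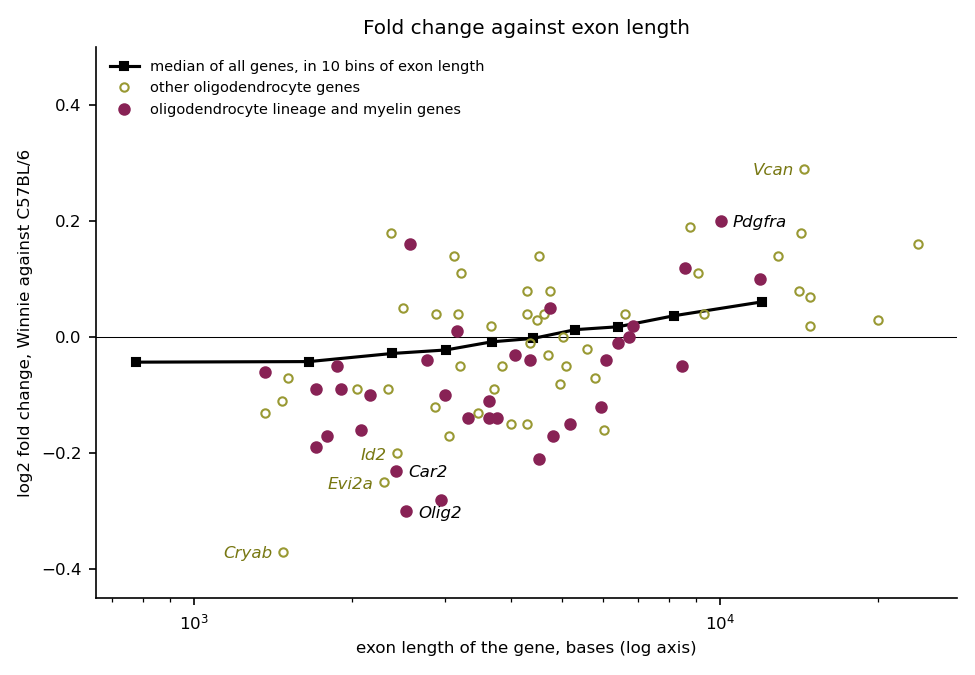
Log2 fold change, *Winnie* against C57BL/6, against exon length on a log axis for the 34 genes (filled) and the 49 other oligodendrocyte genes (open), with the median of all genes in each of 10 bins of length (squares); names mark an FDR under 0.05. The squares run from -0.043 to 0.061, with *Pdgfra* and *Vcan* among the long genes and *Olig2*, *Car2*, *Id2*, *Evi2a* and *Cryab* among the short ones.

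The genes varied together from brain to brain within a genotype. Among the 29 genes other than those of precursor and committed cells, C57BL/6 replicate 2 was the highest of its genotype for 18 and lay above the mean of all brains for 29. C57BL/6 replicate 3 was the lowest of its genotype for 12. In *Winnie*, replicate 4 was the highest for 12 and replicate 10 was the highest for 10. *Winnie* replicates 7, 8 and 6 were the lowest for 10, 7 and 5, and they also had the lowest *Winnie* values of *Car2* (147.8, 141.6 and 140.6 CPM). Their sample names end in S17, S18 and S16 and they were labelled male, as was replicate 10. The part of sex or of this order in their levels was not tested. The median deviation of these 29 genes from the mean of all brains ran from -0.13 to 0.23 in C57BL/6 and from -0.19 to 0.11 in *Winnie* on the log2 scale, so the spread within a genotype was wider than the median difference between genotypes. Without C57BL/6 replicate 2 the median log2 fold change of all 34 genes was -0.051, and without C57BL/6 replicate 3 it was -0.116.

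**Figure D5:**
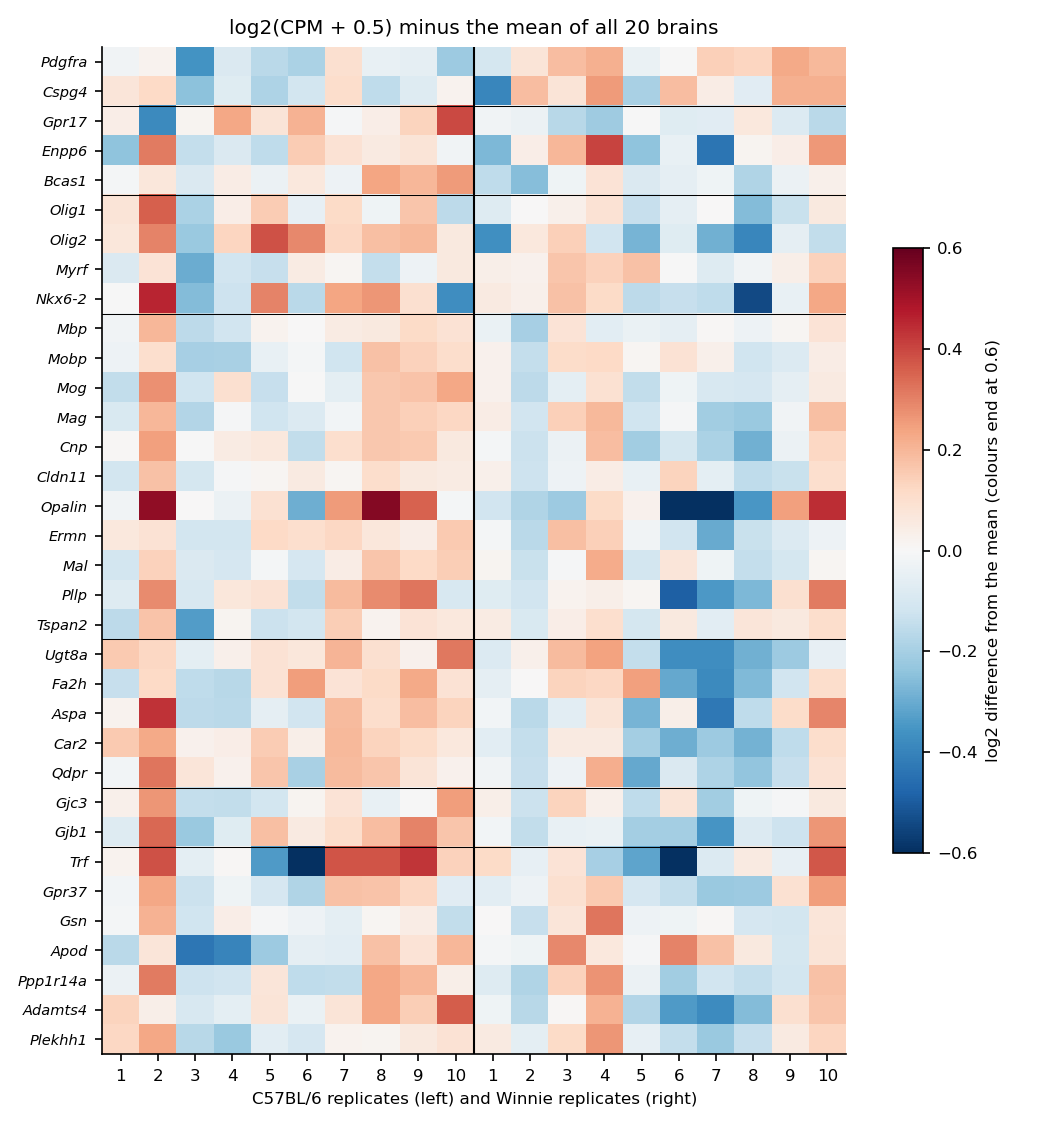
Log2(CPM + 0.5) of each of the 34 genes in each brain, minus the mean of all 20 brains; red is higher and blue lower, colours end at 0.6, and lines part the genotypes and roles. The column of C57BL/6 replicate 2 is red for all 29 genes from *Olig1* down and that of *Winnie* replicate 7 is mostly blue, while *Olig2* and *Car2* are lower across most *Winnie* columns.

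Markers of other cells and regions also varied between brains. The summed level of 5 striatal markers ran from 149 to 529 CPM in C57BL/6 and from 140.0 to 542 CPM in *Winnie*, and that of 5 cerebellar markers from 64.9 to 121 CPM and from 56.8 to 80.5 CPM, with 9 of 10 *Winnie* brains below the C57BL/6 median. Most of the cerebellar sum came from *Pvalb* (means 58.2 and 52.7 CPM) and *Car8* (12.7 and 9.92 CPM), which neurons outside the cerebellum also express, while *Pcp2* (1.05 and 0.448 CPM), *Gabra6* (1.46 and 0.453 CPM) and *Cbln3* (3.05 and 1.40 CPM) were low. For 5 choroid plexus markers the ranges were 719 to 1045 and 491 to 996 CPM, and for 10 markers of mural cells and fibroblasts 219 to 269 and 233 to 267 CPM. For 7 neuronal markers they were 5715 to 6583 and 5812 to 6442 CPM, for 5 astrocyte markers 1028 to 1184 and 1009 to 1167 CPM, and for 5 microglial markers 205 to 231 and 187 to 249 CPM. For 4 endothelial markers they were 109.9 to 157 and 120.2 to 146 CPM, for 5 of cortex and hippocampus 539 to 664 and 548 to 625 CPM, and for 5 of blood 93.6 to 208 and 40.6 to 149.8 CPM. For the 2 of 5 Schwann cell markers that were listed they were 70.3 to 91.5 and 75.7 to 84.0 CPM, and for the 1 of 6 hindbrain markers 0.293 to 6.42 and 0.158 to 5.31 CPM. Only *Cldn5*, the claudin of endothelial tight junctions, was called among these markers (log2 fold change -0.47, limma FDR = 0.00331). The other 3 endothelial markers, *Pecam1*, *Flt1* and *Ly6c1*, had log2 fold changes above 0, at 0.09, 0.09 and 0.21. With the striatal, choroid plexus or neuronal markers as a covariate *Pdgfra*, *Olig2* and *Car2* kept their calls. The part of the other lists in the differences was not tested.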

How the data were processed

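The authors made polyA libraries from the brains of 20 mice, which were processed with RNAsik 1.5.4 on GRCm38 and counted with featureCounts. The values were deposited by the authors as CPM, scaled to each library's total over the 17211 listed genes. Every value is a whole number of reads within a tolerance of 0.1 read (100.0% of values in each library), and 1 read corresponds to 0.0418 to 0.0605 CPM. The study text describes 8 C57BL/6 and 6 *Winnie* brains without naming them, so all 20 deposited brains were used. The library protocol's strand setting is not given in the sources used here, so overlapping genes are uncertain.

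Genotypes were compared with limma 3.58.1 (R 4.3.3) on log2(CPM + 0.5), with robust variances that follow a trend in level, over all genes with a mean of at least 0.1 CPM, which were all 17211. FDR is the Benjamini-Hochberg adjusted p over all genes, and log2 fold changes are on the log2(CPM + 0.5) scale. Alternatives were a pseudocount of 0.1 or 1 CPM, genes of at least 1 CPM on average, median-ratio scaling, quantile normalization, edgeR 4.0.16, DESeq2 1.42.0 and voom on the recovered reads, labelled sex or *Ddx3y* as a covariate, a replicate block, looser and stricter thresholds, and each brain left out. Chosen after seeing the data were the correction for length and GC content, the covariates of markers and of mitochondrial share, and leaving out *Winnie* replicates 4 and 5 together. The limma and edgeR fits were also run on simulated data, and the outcome is not given here. Exon lengths and positions come from GENCODE M21, which matched 17128 genes.

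The genes and lists were chosen with earlier results of these data known. All 34 genes are named. Given in full are those called, the gene with the smallest p in each role, and *Pdgfra*, *Gpr17*, *Olig2*, *Mbp* and *Mog*. Of the other oligodendrocyte genes, those called are named, and *Ptprz1*, *Sox10* and *Sox8* were added after their values were seen. The limma p-values weigh the difference between the genotypes against the spread between these brains, with variances moderated over all genes. Some listed genes are not reported here and stand in no list. The colon, metabolite and microbiota data were not used here.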

Additional observations from a re-analysis of the deposited data

Results flagged for a closer look

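Among 78 groups of 10 brains, formed by 39 named genes in each genotype, 3 had a single brain whose gap to its nearest neighbour was large for the group's range (Dixon's test at 95%). About 1 in 20 groups would be flagged by chance. *Gjb1* was 27.5 CPM in *Winnie* replicate 10, where the next brain had 22.6 CPM and the lowest 17.8 CPM. *Gsn*, an actin-severing protein, was 62.6 CPM in C57BL/6 replicate 2, with 56.0 CPM in the next brain. *Gsn* was also 67.9 CPM in *Winnie* replicate 4, with 57.1 CPM in the next. In each case the brain that stood apart was the highest of its genotype, and C57BL/6 replicate 2, *Winnie* replicate 4 and *Winnie* replicate 10 were also the highest of their genotype for 18, 12 and 10 of the 29 genes beyond the precursor and committed stages.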

How the results depend on the processing

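The replicate numbers in the labels did not pair the brains: same-numbered brains correlated between -0.29 and 0.15 in their deviations from the genotype means, 2 of 10 pairs over 0.1, and 1 C57BL/6 and 1 *Winnie* brain correlated best with its own number. With a replicate block 227 genes were called in place of 434, with 2 of the 34 and 3 of the 49 other oligodendrocyte genes, and *Pdgfra* had an FDR of 0.0540 and *Evi2a* of 0.0745. DESeq2 called 977 genes and 6 of the 34, adding *Bcas1*, *Ugt8a* and *Qdpr*, whereas edgeR called 514 and 3. With the mitochondrial share as a covariate 723 genes were called. In the main limma fit there were 993 genes and 5 of the 34 at an FDR under 0.1, and 0 genes and 0 of the 34 at the threshold of the study.

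Leaving out 1 brain each, 169 to 694 genes were called over all genes (169, 238, 250 and 270 without C57BL/6 replicate 5, 3, 8 or 9, 216, 241, 256 and 264 without *Winnie* replicate 8, 3, 7 or 2, and 694 without C57BL/6 replicate 10), 2 to 5 of the 34 genes (5 without *Winnie* replicate 4), and 3 to 5 of the other oligodendrocyte genes. The direction of 30 of the 34 genes was kept under all 17 settings and 20 left-out brains. The 4 that changed sign all lay close to 0. *Enpp6* was 0.00 with edgeR, DESeq2 or *Ddx3y* as a covariate and 0.02 with choroid plexus markers as a covariate, and -0.05 to 0.04 with a brain left out. *Mobp* was -0.02 with the length and GC correction, and -0.01 to 0.04 with a brain left out. *Plekhh1* was -0.03 to 0.03 with a brain left out, 0.00 with median-ratio scaling or striatal markers as a covariate, -0.01 with quantile normalization or mitochondrial share as a covariate, and -0.03 with the length and GC correction or without *Winnie* replicates 4 and 5 together. *Gsn* was -0.02 to 0.04 with a brain left out, -0.01 with mitochondrial share as a covariate and -0.02 without *Winnie* replicates 4 and 5. The causes were not tested. *Enpp6*, read 100 to 187 times per brain, had the fewest reads of the 34, and the part of counting error in the spread between brains was not tested.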
